A study of Mus musculus with 6 samples.

Results

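The genes described here encode the machinery that brings proteins into mitochondria and folds them there. They are every listed gene whose symbol starts with Timm or Tomm, plus Hspd1, Hspe1, Hspa9, Pmpca and Pmpcb, with pseudogenes left out. These came to 31 of 22942 genes, and the RefSeq transcript with the highest mean value over the libraries stood for each gene.

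The measurements were messenger RNA levels in cultured C3H-10T1/2 cells, a line of mouse mesenchymal origin used as preadipocytes. Of the 6 libraries, 3 were from DMSO-treated cultures (the solvent control) and 3 from cultures treated with 611 at 4 uM. This compound, which the labels also name Cpd A, inhibits LSD1, an enzyme that removes methyl groups from histones. All cultures of both groups were kept for 6 days under brown adipocyte differentiation conditions. For the opening 72 h that medium was DMEM/F12 with 10% FBS, T3 at 1 nM, insulin at 20 nM, rosiglitazone at 1 uM, dexamethasone at 1 uM, indomethacin at 125 uM and isobutylmethylxanthine at 0.5 mM, and afterwards it kept the serum, insulin, T3 and rosiglitazone. The labels place the start of treatment either at seeding or 12 h later, 48 h ahead of induction. The model is 1 cell line in culture, given 1 inhibitor at 1 dose and sampled at 1 time. The submitters describe each group as biological triplicates, so p-values measure the spread between these 3 cultures and nothing wider.

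Nearly all mitochondrial proteins are encoded in the nucleus, made in the cytosol and imported as unfolded chains. The TOM complex of the outer membrane recognizes and admits them, small TIM chaperones carry hydrophobic ones across the intermembrane space, and the TIM22 and TIM23 complexes insert them into or pass them through the inner membrane. In the matrix the chaperone Hspa9 pulls the chain in, the Pmpca and Pmpcb peptidase removes its targeting presequence, and Hspd1 with Hspe1 folds it. Brown adipocytes are known for their many mitochondria, and their formation calls for a large supply of imported protein.

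Levels are in RPKM, reads scaled by transcript length and by library total, so they can be compared between genes as levels per length. Library totals recovered from the smallest steps of the values were between 3.89e+07 and 4.12e+07, and between 15732 and 16021 genes were above 0. Each gene was tested with limma on log2(RPKM + 1), with Benjamini-Hochberg adjustment over the 13829 genes that reached 0.1 RPKM in at least 3 libraries. A gene is called here when its adjusted p is below 0.05. Folds are ratios of the group means in RPKM, and log2 fold changes are on the log2(RPKM + 1) scale. Kdm1a, the gene of the inhibited enzyme, was at 9.06, 9.43 and 8.77 RPKM with DMSO and 11.0, 11.3 and 11.7 RPKM with 611. It was called higher, by 1.25-fold, with an adjusted p of 0.000743 from limma, where 41.6% of all genes tested were called higher. An inhibitor of a protein need not change the RNA level of its gene, and the cause of this rise was not tested.

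Marker genes of several cell types differed between the groups. Beside the calls below, 17.7% of all genes tested were called lower and 41.6% higher. The summed level of 10 general adipocyte markers ranged from 28377 to 29629 RPKM with DMSO and from 14590 to 16125 RPKM with 611, and all 10 were called lower. Within that sum Fabp4 alone had means of 21052 RPKM with DMSO and 10946 RPKM with 611. Of 10 brown adipocyte markers 7 passed the filter, with 5 called lower and 1 higher, and the defining gene Ucp1 was listed at 0 in all 6 libraries. The summed level of those brown markers was 224 to 268 RPKM with DMSO and 84.2 to 103 RPKM with 611. In that sum Elovl3 alone had means of 151 RPKM with DMSO and 76.0 RPKM with 611. The brown marker called higher was Ebf2, with means of 0.564 and 0.880 RPKM, a call lost after median-of-ratios scaling (adjusted p 0.0655 from limma). Ppargc1a, not called, also had a higher mean with 611, 0.705 against 0.527 RPKM. The summed level of the 8 progenitor or fibroblast markers was 71.0 to 80.1 RPKM with DMSO and 235 to 251 RPKM with 611, with all 7 tested called higher and Dpp4 at 0 throughout. The 6 markers of dividing cells summed to 71.4 to 72.9 RPKM with DMSO and 165 to 187 RPKM with 611, and all 6 were called higher. The 8 osteoblast or chondrocyte markers summed to 13.2 to 13.9 RPKM with DMSO and 29.3 to 30.9 RPKM with 611. Of the 4 tested, 3 were called higher (Runx2, Col2a1 and Sox9) and 1 lower (Alpl, with means of 1.02 and 0.498 RPKM). Among those not tested, Bglap and Ibsp had lower means with 611, Sp7 a higher one, and Acan was at 0 throughout. The 5 myofibroblast or smooth muscle markers summed to 31.3 to 32.7 RPKM with DMSO and 67.1 to 76.3 RPKM with 611. Of the 4 tested, 2 were called higher, Acta2 (means of 22.1 and 56.4 RPKM) and Tagln (7.43 and 13.6 RPKM). Myh11 and Des, not called, and Cnn1, not tested, had lower means with 611. Of the 5 skeletal muscle markers, Myod1, Myog and Ckm were at 0 throughout, and the sum was 0.198 to 0.256 RPKM with DMSO and 0.558 to 0.876 RPKM with 611. In bulk RNA, fewer cells of a type and less RNA per cell cannot be told apart. The part of these marker shifts in the results on import genes was not tested.

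Most import genes were lower with 611, by modest amounts. Of the 31 genes, 30 passed the filter. Among those 30, limma called 23 lower and 1 higher at an adjusted p below 0.05, where 17.7% of all genes tested were called lower and 41.6% higher. The folds of the 23 lower genes lay between 1.10 and 1.53, with adjusted p-values from limma between 1.3e-05 and 0.0214. Hspa9, Timm10 and Hspd1 had the largest decreases on the log2 scale, and Tomm34 was the gene that rose. Tomm22, Tomm40l, Tomm20l, Tomm7, Timm10b and Timm17b were not called. The median log2 fold change of the 30 genes was -0.28, against 0.10 for all genes tested.

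The authors' scaling leaves the median of all genes above 0. A median-of-ratios scaling moved that median by -0.11, and after it 28 import genes were called lower and 0 higher, where the background was 28.6% lower and 28.5% higher. Tomm34 and Tomm20l were the 2 not called after this scaling. Over all genes the calls were 5758 higher and 2451 lower as deposited, and 3941 higher and 3962 lower after scaling. Fitting the replicate number as a block raised the count of lower import genes from 23 to 25 and kept 1 higher. The background was then 19.5% lower and 44.6% higher.

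In 24 import genes every 611 library lay below every DMSO library, in 1 every 611 library lay above, and in 5 the groups overlapped. The same separation was found in 20.4% of all genes tested downward and in 45.8% upward. Log2 fold changes were below 0 in 28 of the 30 import genes and in 35.2% of all genes tested. No import gene reached a log2 fold change of -1, which 88 called genes did.

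**Figure D1:**
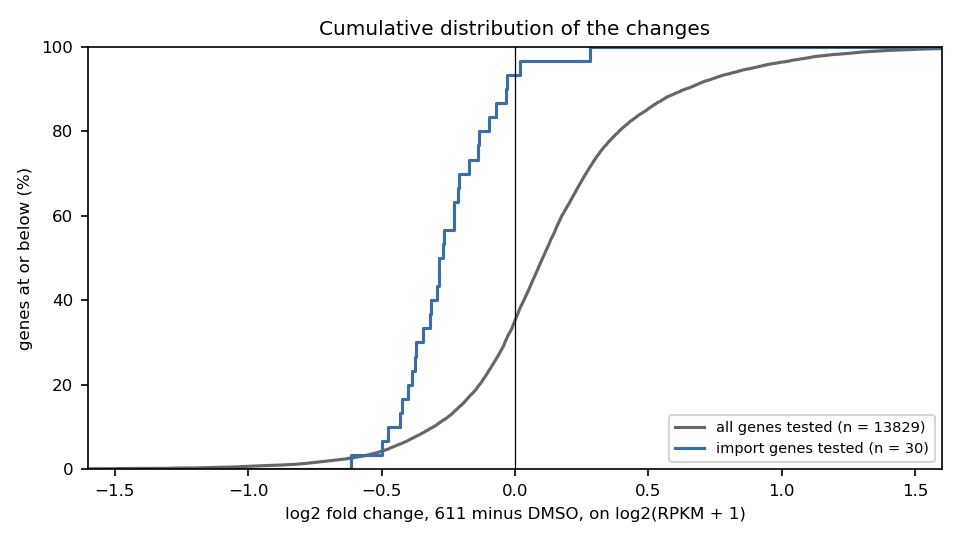
Log2 fold change of 611 minus DMSO on the log2(RPKM + 1) scale (x axis) against the cumulative percent of genes (y axis) for the 30 tested import genes and for all 13829 genes tested. The import genes lie to the left, with a median of -0.28 against 0.10.

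**Figure D2:**
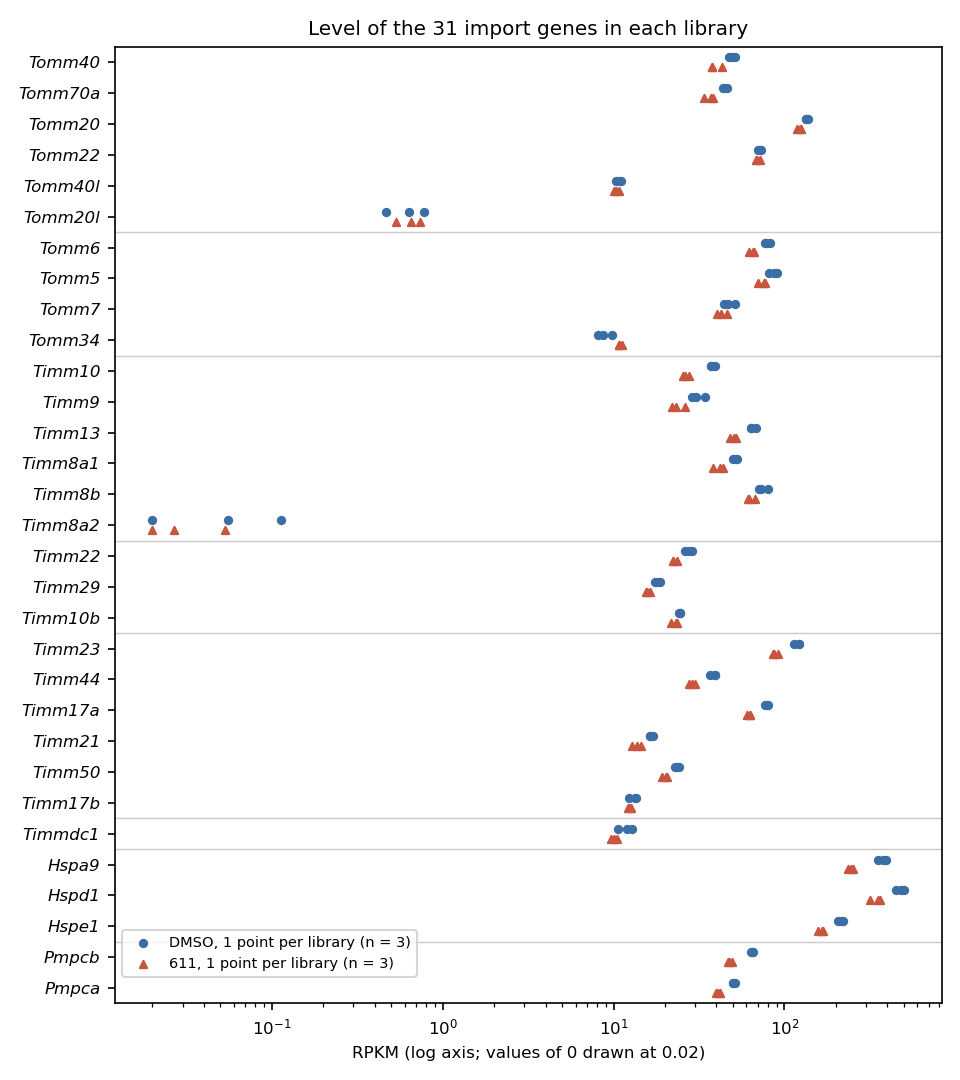
RPKM on a log axis for each import gene (rows, grouped by role) in the 3 DMSO and 3 611 libraries, 1 symbol per library, with values of 0 drawn at the left edge. Hspd1, Hspa9 and Hspe1 are the highest rows and Timm8a2 and Tomm20l the lowest, and in most rows the 611 symbols lie left of the DMSO symbols.

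The promoters of these genes were read for short motifs of factors that are known for nuclear genes of mitochondrial proteins or for chaperone genes. Windows were taken from RefSeq on build GRCm38.p6, from 250 bases before to 50 bases after the start of each transcript. The expression files use build mm9, so these windows were joined to the genes by symbol. Windows were read for 27 of the 31 genes. None was read for Hspa9, Timm21, Tomm7 and Tomm40l. The motif shares of import genes therefore do not cover these genes, and Hspa9 had the largest decrease of the set. The 4 windows below are shown because they hold the ETS, heat shock and ERR letters in genes that differed in response, from Timm10, one of the largest decreases, to Tomm22, which was not called. Each is printed from 250 bases before the start to 30 bases after it, on the plus strand, with the motif letters in capitals.
Hspe1: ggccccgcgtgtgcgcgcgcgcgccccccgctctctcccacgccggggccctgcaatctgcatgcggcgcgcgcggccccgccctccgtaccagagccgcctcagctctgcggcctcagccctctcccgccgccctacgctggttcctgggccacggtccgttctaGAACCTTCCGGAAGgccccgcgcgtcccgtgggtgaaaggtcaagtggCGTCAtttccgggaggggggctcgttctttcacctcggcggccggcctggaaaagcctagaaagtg
Timm10: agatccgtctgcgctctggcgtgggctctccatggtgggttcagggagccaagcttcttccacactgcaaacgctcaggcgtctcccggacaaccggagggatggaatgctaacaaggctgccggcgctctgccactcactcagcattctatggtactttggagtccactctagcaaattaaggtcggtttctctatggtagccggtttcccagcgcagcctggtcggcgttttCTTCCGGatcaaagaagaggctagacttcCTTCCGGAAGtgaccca
Timm8b: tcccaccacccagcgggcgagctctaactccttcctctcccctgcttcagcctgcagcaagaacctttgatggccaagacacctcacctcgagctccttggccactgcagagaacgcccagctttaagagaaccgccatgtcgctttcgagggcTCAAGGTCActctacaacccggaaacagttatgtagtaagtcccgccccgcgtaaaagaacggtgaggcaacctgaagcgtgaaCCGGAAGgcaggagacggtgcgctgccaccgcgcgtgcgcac
Tomm22: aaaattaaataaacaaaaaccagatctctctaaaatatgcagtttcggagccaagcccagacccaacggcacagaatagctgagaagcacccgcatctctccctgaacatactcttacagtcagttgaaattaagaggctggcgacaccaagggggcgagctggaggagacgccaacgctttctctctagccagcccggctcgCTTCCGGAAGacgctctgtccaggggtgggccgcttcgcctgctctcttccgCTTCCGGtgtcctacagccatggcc

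These stretches are chr1:55087898-55088177 for Hspe1, chr2:84826771-84827050 for Timm10, chr9:50603651-50603930 for Timm8b and chr15:79670618-79670897 for Tomm22. In Hspe1 the capitals mark heat shock letters that begin 84 bases before the start and overlap ETS letters on both strands, and then a cAMP response core. In Timm10 and Tomm22 all capitals are ETS letters, and each of these windows holds the ETS letters on both strands joined into the palindrome CTTCCGGAAG. In Timm8b the capitals mark the ERR element and, nearer to the start, 1 ETS motif.

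The ETS letters CCGGAAG, searched on both strands, were present in the window of 14 of the 27 genes, or 51.9%, against 19.5% of 10505 tested genes with a window and 8.86% of all 32851 windows. Of the 13 tested import genes with the letters, 10 were called lower, 1 higher and 2 not at all, with a median log2 fold change of -0.28. Of the 13 without them, 11 were called lower and 2 not at all, with a median of -0.29. Among all genes tested, 19.1% of those with the letters and 18.3% of those without were called lower.

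The cAMP response core TGACG was present in 12 of the 27 genes, or 44.4%, against 34.8% of tested genes. The heat shock letters GAANNTTC were found in Hspd1, Hspe1 and Timm9, against 7.06% of tested genes. The NRF1 letters GCGCATGC were found in Timm13, the YY1 letters AAGATGGC in Timm50 and the ERR letters TCAAGGTCA in Timm8b. The shares of tested genes with these letters were 5.81%, 5.16% and 0.295% in that order. In Hspd1 and Hspe1 the heat shock and ETS letters overlap, and those genes face away from each other and share 285 bases of window, so their motifs are the same stretch read from either side. A match is a description of letters, not of binding.

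In 9 import genes the window overlapped that of a gene on the other strand. Of the 6 tested partners across such a window that are not import genes themselves, 1 was called lower, 2 higher and 3 not at all, which is near the 17.7% lower and 41.6% higher of all genes tested. Parg, across from Timm23, had a mean of 7.74 RPKM with DMSO and 7.83 RPKM with 611 and was not called. Entr1, across from Pmpca, had means of 22.5 and 22.0 RPKM and was not called. Sdhd, a subunit of respiratory complex II that lies across from Timm8b, fell from 203 to 151 RPKM, with an adjusted p of 9.66e-05 from limma. Pqbp1, across from Timm17b, rose from 16.7 to 21.9 RPKM, while Timm17b was not called.

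The outer membrane receptors and pore changed least as a group, with 3 of 6 called lower and a median log2 fold change of -0.08. Beside the counts of this group and those below, 17.7% of all genes tested were called lower and 41.6% higher. Tomm40, the barrel-shaped pore through which nearly all precursors enter, was at 49.5, 51.2 and 47.5 RPKM with DMSO and 43.0, 38.0 and 37.6 RPKM with 611. The groups did not overlap, and the 611 libraries were lower by 1.25-fold, with an adjusted p of 0.00119 from limma. Tomm70a, the receptor for carrier precursors handed over by cytosolic chaperones, was at 44.6, 43.5 and 45.8 RPKM with DMSO and 37.0, 33.7 and 38.1 RPKM with 611. It was lower in every 611 library, by 1.23-fold on average. Tomm20, the receptor for presequences and the most abundant TOM transcript, was at 133, 134 and 137 RPKM with DMSO and 124, 118 and 125 RPKM with 611. All 611 libraries were again the lower ones, but the fold was 1.10, the smallest among the called genes, and the adjusted p was 0.0111 from limma. With a trend on transcript length, GC content and level removed, the adjusted p of Tomm20 was 0.0579 and it was not called.

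Tomm22, the central receptor that holds the TOM complex together, stood apart from these. Its level was 73.2, 71.9 and 70.3 RPKM with DMSO and 72.4, 68.4 and 69.5 RPKM with 611, and the groups overlapped. Its log2 fold change was -0.03, with a 95% confidence interval from -0.12 to 0.05 and an adjusted p of 0.451 from limma. After median-of-ratios scaling it was called lower, with an adjusted p of 0.00482 from limma. Tomm40l, a paralog of the pore, was at 10.6, 10.4 and 11.1 RPKM with DMSO and 10.8, 10.4 and 10.1 RPKM with 611, which overlapped. It too was called lower after that scaling, with an adjusted p of 0.0196 from limma. Tomm20l, a paralog of Tomm20, was near the bottom of the range with 0.463 to 0.777 RPKM with DMSO and 0.533 to 0.740 RPKM with 611, which corresponds to 11 to 18 reads a library, and was not called.

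The small TOM subunits Tomm5, Tomm6 and Tomm7 sit around the pore and steady its assembly. Tomm6 fell from 79.2 ± 2.74 to 64.8 ± 2.08 RPKM (SD, n = 3 each) and Tomm5 fell from 86.3 ± 4.88 to 74.3 ± 3.93 RPKM (SD, n = 3 each). In both genes the groups did not overlap. The call on Tomm5 was lost when the trend on length, GC content and level was removed (adjusted p 0.129 from limma). Tomm7 was at 44.3, 51.2 and 46.7 RPKM with DMSO and 40.2, 42.7 and 46.0 RPKM with 611. These values overlapped and the adjusted p was 0.0939 from limma, but with the replicate number as a block it was 0.0336. Without 611 replicate 3 the adjusted p of Tomm7 was 0.0439, and without DMSO replicate 1 it was 0.0479, both from limma.

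Tomm34, a cytosolic co-chaperone that binds the Hsp70 and Hsp90 chaperones and is not part of the pore, was the exception in direction. It was at 8.70, 9.76 and 8.09 RPKM with DMSO and 10.8, 10.8 and 11.2 RPKM with 611. Every 611 library was above every DMSO library, by 1.24-fold on average, with an adjusted p of 0.00478 from limma. The call did not hold after median-of-ratios scaling, where the log2 fold change was 0.14 and the adjusted p 0.0724, nor with that trend removed, where the adjusted p was 0.111.

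**Figure D3:**
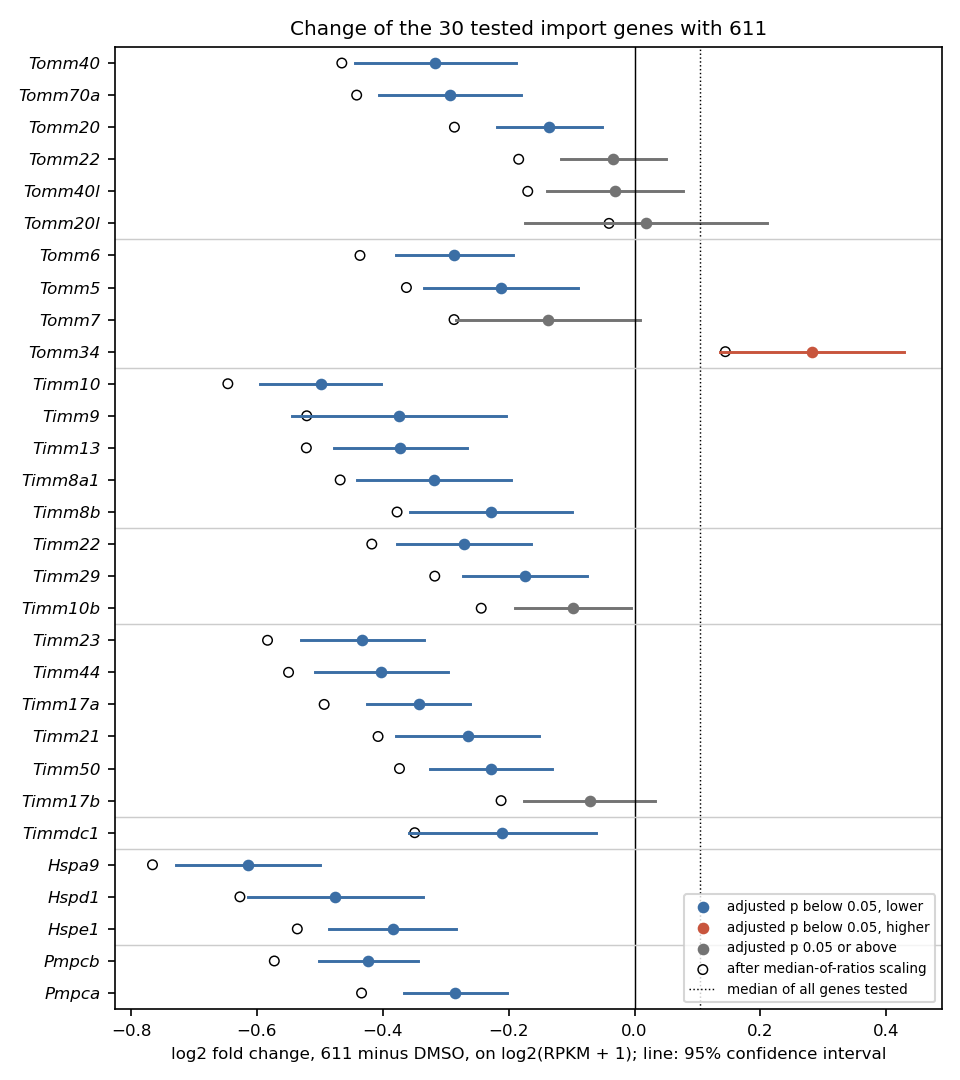
Log2 fold change of 611 minus DMSO for each of the 30 tested import genes (rows, grouped by role), with lines for the 95% confidence interval from limma and open circles for the value after median-of-ratios scaling. Most points lie between -0.61 and -0.14, Tomm34 lies at 0.28, and the dotted line marks the median of all genes tested, 0.10.

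All 5 tested small TIM chaperones were called lower, beside 17.7% of all genes tested, with a median log2 fold change of -0.37. Timm9 and Timm10 together form the ring that escorts carrier precursors through the intermembrane space. Timm10 was at 39.1, 37.1 and 37.2 RPKM with DMSO and 26.3, 25.5 and 27.5 RPKM with 611. The groups were far apart relative to their spread, with a fold of 1.43 and an adjusted p of 1.58e-05 from limma. Timm9 varied more within each group, at 34.2, 28.8 and 30.5 RPKM with DMSO and 26.1, 23.3 and 22.1 RPKM with 611. Its groups did not overlap and the fold was 1.31.

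Timm8a1, Timm8b and Timm13 belong to the other small TIM ring, which serves another set of inner membrane precursors. Timm13 fell from 65.2 ± 2.81 to 50.2 ± 2.22 RPKM and Timm8a1 fell from 51.7 ± 1.67 to 41.3 ± 2.90 RPKM (SD, n = 3 each). Timm8b was the least changed of the set, at 80.3, 73.4 and 70.8 RPKM with DMSO and 67.7, 61.6 and 61.9 RPKM with 611. Its lowest DMSO library was still above its highest 611 library, and the fold was 1.17. With the same trend removed the adjusted p of Timm8b was 0.0855 from limma. Timm8a2, a further copy of this family, did not pass the filter: it had between 0 and 4 reads in each DMSO library and between 0 and 2 in each 611 library, and no fold is given.

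The TIM22 complex inserts carrier proteins into the inner membrane, and 2 of its 3 genes were called lower, beside 17.7% of all genes tested. Timm22, its channel, was at 29.0, 27.6 and 26.1 RPKM with DMSO and 23.5, 22.2 and 22.3 RPKM with 611. The groups did not overlap, the fold was 1.22, and the adjusted p was 0.00104 from limma. Timm29, a subunit found in animals, fell from 18.0 ± 0.607 to 15.9 ± 0.466 RPKM (SD, n = 3 each). Timm10b, a small TIM that stays attached to this complex, was at 24.6, 24.3 and 24.4 RPKM with DMSO and 23.5, 23.1 and 21.8 RPKM with 611. Its 611 libraries were all the lower ones, yet the fold was 1.07 and the adjusted p 0.0636 from limma. With the replicate number as a block the adjusted p of Timm10b was 0.0375, and without 611 replicate 1 it was 0.0494, both from limma.

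The TIM23 complex takes up presequence proteins, and 5 of its 6 genes were called lower, with a median log2 fold change of -0.30. Of all genes tested, 17.7% were called lower. Timm23, the channel-forming subunit and the most abundant TIM transcript, was at 122, 114 and 122 RPKM with DMSO and 91.6, 85.8 and 86.5 RPKM with 611. Every 611 library was well below the DMSO range, with a fold of 1.35 and an adjusted p of 3.82e-05 from limma. Timm44, which tethers the import motor to the channel, was at 39.4, 36.5 and 39.4 RPKM with DMSO and 30.0, 27.7 and 28.8 RPKM with 611. The separation was as clear, with a fold of 1.33. Timm50, the receptor that passes chains from TOM to the channel, fell from 23.6 ± 0.698 to 20.0 ± 0.694 RPKM (SD, n = 3 each). Timm21, which links TIM23 to TOM and to the respiratory chain, fell from 16.7 ± 0.377 to 13.7 ± 0.797 RPKM (SD, n = 3 each).

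Timm17a and Timm17b are paralogs of which each TIM23 complex holds 1. Timm17a was at 79.9, 77.3 and 79.6 RPKM with DMSO and 62.8, 63.1 and 60.2 RPKM with 611. These groups lay well apart, with a fold of 1.27 and an adjusted p of 5.06e-05 from limma. Timm17b was at 12.4, 13.3 and 13.5 RPKM with DMSO and 12.3, 12.6 and 12.2 RPKM with 611. The groups overlapped and the adjusted p was 0.211 from limma, though after median-of-ratios scaling Timm17b was called lower with an adjusted p of 0.00316. Timmdc1, a relative of these channel subunits that is known as an assembly factor of respiratory complex I, was at 12.8, 10.7 and 11.9 RPKM with DMSO and 10.0, 9.64 and 10.4 RPKM with 611. The nearest libraries of the groups almost met, and its adjusted p of 0.0214 from limma was the weakest among the called genes. The call on Timmdc1 was lost without 611 replicate 1 (adjusted p 0.0507), 611 replicate 2 (0.0689), DMSO replicate 1 (0.0778) or DMSO replicate 3 (0.0617), all from limma.

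The matrix chaperones were the highest of these genes and had the lowest median of the groups, a log2 fold change of -0.48. All 3 were called lower, beside 17.7% of all genes tested. Hspa9, the mitochondrial Hsp70 that drives the import motor and helps to fold what arrives, was at 379, 351 and 391 RPKM with DMSO and 251, 235 and 245 RPKM with 611. Every 611 library was far below the lowest DMSO library, the fold was 1.53, the largest of the set, and the adjusted p was 1.27e-05 from limma. Hspd1, the Hsp60 subunit of the folding chamber, was at 479.6, 452 and 504 RPKM with DMSO and 361, 318 and 354 RPKM with 611. All 611 libraries were lower, by 1.39-fold on average. Hspe1, the Hsp10 lid of that chamber, was at 207, 218 and 220.0 RPKM with DMSO and 167, 157 and 169 RPKM with 611. The groups were again separate and the fold was 1.31.

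The matrix processing peptidase cuts off presequences, and both of its subunits were called lower, beside 17.7% of all genes tested. Pmpcb, which holds the catalytic site, was at 64.4, 65.2 and 63.4 RPKM with DMSO and 49.0, 47.0 and 47.2 RPKM with 611. The values were tight within each group and far apart between them, with a fold of 1.35 and an adjusted p of 1.29e-05 from limma. Pmpca, the subunit that recognizes the presequence, was at 50.0, 49.7 and 51.1 RPKM with DMSO and 42.2, 40.0 and 41.1 RPKM with 611. Its groups were also separate, with a smaller fold of 1.22.

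Summed over all 31 genes, the level fell by 22.7%, from 2348 ± 51.5 to 1816 ± 62.8 RPKM (SD, n = 3 each). The sums of the groups differed in how much they changed. The matrix chaperones fell by 29.5%, the peptidase fell by 22.5%, TIM23 fell by 22.4% and the small TIMs fell by 21.2%. The small TOM subunits with Tomm34 fell by 13.0%, TIM22 fell by 12.5% and the TOM receptors and pore fell by 10.3%. As a share of the summed level, the 3 matrix chaperones made up 44.6% to 46.7% in the DMSO libraries and 40.6% to 42.0% in the 611 libraries. The TOM receptors and pore made up 13.0% to 13.6% with DMSO and 15.4% in each 611 library. These sums are descriptions and were not tested. Over the 30 tested genes, the log2 level and the log2 fold change had a Pearson correlation of -0.62. It is a description across genes measured in the same 6 libraries, with no value over all genes beside it. The fold changes are on log2(RPKM + 1), a scale that shrinks changes of genes with low RPKM.

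Ratios between genes of the same library do not depend on how a library was scaled, so 10 pairs of paralogs or partner subunits were compared as ratios. An exact two-sided permutation test of 3 against 3 libraries cannot go below p = 0.1, so no pair could pass. In 6 of the 10 pairs the groups did not overlap, with an exact permutation p of 0.1 and 0.167 after adjustment over the 10 pairs. The ratio of Tomm40 to its paralog Tomm40l was 4.67, 4.93 and 4.29 with DMSO and 3.97, 3.67 and 3.71 with 611. The ratio of Timm17a to Timm17b was 6.45, 5.83 and 5.92 with DMSO and 5.12, 5.02 and 4.92 with 611. In both pairs every 611 ratio was the lower one, so the more abundant paralog made up less of the total.

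The ratio of Tomm20 to Tomm70a was higher in every 611 library, at a mean of 3.38 against 3.02. The ratio of Tomm22 to Tomm20 was also higher, at 0.572 against 0.533, as was that of Pmpca to Pmpcb, at 0.861 against 0.782, and that of Hspd1 to Hspa9, at 1.41 against 1.28. In the other 4 pairs the groups overlapped. The chamber subunits Hspd1 and Hspe1 stood at a mean ratio of 2.23 with DMSO and 2.09 with 611 (exact permutation p = 0.3). The ring partners Timm9 and Timm10 stood at 0.824 and 0.902 (exact permutation p = 0.3). Timm8a1 to Timm8b stood at 0.692 and 0.648 (exact permutation p = 0.3) and Timm13 to Timm8a1 at 1.26 and 1.22 (exact permutation p = 0.7).

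**Figure D4:**
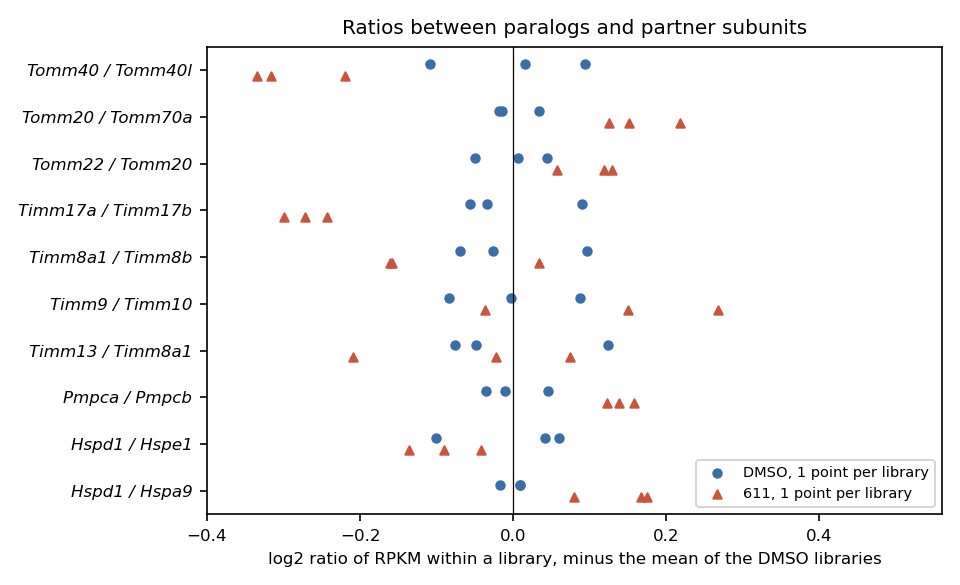
Log2 ratio of RPKM between 2 genes of the same library, minus the mean of the DMSO libraries (x axis), for 10 pairs (rows), with 1 symbol per library. In Tomm40 to Tomm40l and Timm17a to Timm17b all 611 symbols lie left of all DMSO symbols, and in 4 pairs they lie to the right.

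Genes that work with the import machinery were followed in 6 lists of 58 genes, all of which passed the filter. Together 33 were called lower and 8 higher, with a median log2 fold change of -0.22, where 17.7% of all genes tested were lower and 41.6% higher. After median-of-ratios scaling 44 were called lower and 2 higher, beside 28.6% and 28.5% of all genes. Of the 6 partners of the TIM23 motor 5 were called lower. Dnajc15, a J-protein that stimulates Hspa9 at the channel, was at 63.6, 58.1 and 57.7 RPKM with DMSO and 39.3, 40.6 and 38.3 RPKM with 611. Its groups were far apart, with a fold of 1.52. The nucleotide exchange factor Grpel1 fell by a fold of 1.38, from 53.4 to 38.7 RPKM, and the regulatory J-like protein Pam16 fell from 37.4 to 30.1 RPKM. Dnajc19, the other J-protein of the motor, fell from 18.3 to 15.2 RPKM.

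Of the 8 genes of the intermembrane space relay and of outer membrane assembly, 6 were called lower, beside 17.7% of all genes tested. Chchd4, the oxidoreductase that traps small cysteine-rich proteins such as the small TIMs, was at 21.6, 18.1 and 20.4 RPKM with DMSO and 15.7, 12.6 and 13.4 RPKM with 611. All 611 libraries were lower, with a fold of 1.44 and an adjusted p of 0.000946 from limma. Aifm1, which binds Chchd4, fell from 47.5 to 35.6 RPKM, and Samm50, which inserts barrel proteins such as Tomm40 into the outer membrane, fell from 112 to 84.4 RPKM. Gfer, which reoxidizes Chchd4, was at a mean of 9.29 RPKM with DMSO and 7.87 RPKM with 611, with overlapping groups and an adjusted p of 0.0341 from limma. The call on Gfer was lost without 611 replicate 2 (adjusted p 0.0851), 611 replicate 3 (0.112), DMSO replicate 2 (0.0809) or DMSO replicate 3 (0.0957), and with no filter on low values (0.0649), all from limma.

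Of the 7 genes of inner membrane insertion and presequence processing, 5 were called lower and 1 higher, beside 17.7% and 41.6% of all genes. Xpnpep3, an aminopeptidase that trims imported proteins, was at 13.7, 13.3 and 13.4 RPKM with DMSO and 8.84, 8.97 and 8.67 RPKM with 611. Its groups were tight and separate, with a fold of 1.53. Immp2l, of the inner membrane peptidase, fell from 2.44 to 1.73 RPKM, and Cox18, an insertase for a respiratory subunit, fell from 12.8 to 10.3 RPKM. Pitrm1, which degrades cleaved presequences, rose from 18.3 to 20.9 RPKM, a call lost after median-of-ratios scaling (adjusted p 0.466) and with the trend on length, GC content and level removed (0.153), both from limma. The insertase Oxa1l had means of 28.0 and 26.0 RPKM and was not called, with an adjusted p of 0.0641 from limma. It was called lower after median-of-ratios scaling (adjusted p 0.0024), with that trend removed (0.00673), with the replicate number as a block (0.0155) and without 611 replicate 1 (0.0399), all from limma.

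Of the 15 matrix folding and protease genes, 10 were called lower and 1 higher, beside 17.7% and 41.6% of all genes tested. Clpx, the unfoldase of the ClpXP protease, was at 34.1, 33.3 and 35.5 RPKM with DMSO and 18.4, 18.3 and 18.5 RPKM with 611. No import gene had so large a fold, 1.86, and the adjusted p was 6.94e-07 from limma. Its protease partner Clpp fell less, from 31.6 to 25.8 RPKM. The matrix protease Lonp1 fell by a fold of 1.50, from 60.5 to 40.2 RPKM. The J-protein Dnaja3, which works with Hspa9, fell from 47.8 to 33.2 RPKM, and Trap1, the mitochondrial Hsp90, fell from 89.1 to 63.6 RPKM. Htra2, an intermembrane space protease, rose from 7.87 to 8.94 RPKM. Its call was lost after median-of-ratios scaling (adjusted p 0.652), with the same trend removed (0.853), and also without 611 replicate 1 (0.0506), 611 replicate 3 (0.0695) or DMSO replicate 3 (0.0793), all from limma.

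**Figure D5:**
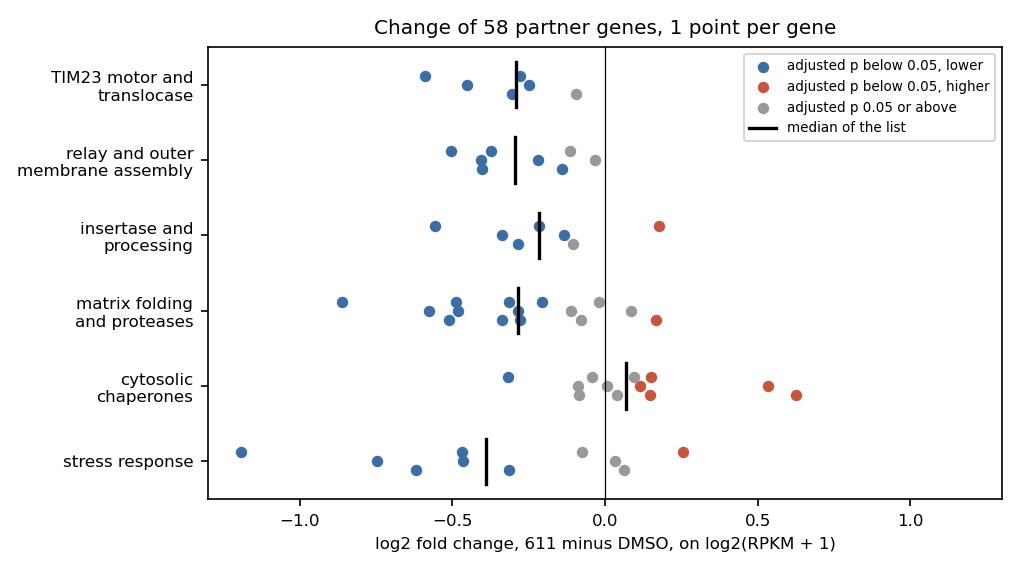
Log2 fold change of 611 minus DMSO (x axis) for the 58 partner genes in 6 lists (rows), 1 point per gene, with a vertical bar at the median of each list. In all but 1 list the medians lie between -0.39 and -0.21, and for the list of cytosolic chaperones with Pink1 the median is 0.07.

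Some values carry an uncertainty of assignment, because the sources used here do not say whether the authors' counting used strand. Hspd1 has 5 named pseudogenes, Hspe1 has 7 named copies, and Hspa9 and Timm29 have 1 named pseudogene each, with which reads could be shared. Several loci overlap another protein-coding gene: Timm9 with Tomm20l, Hspd1 with Hspe1, Pmpca with Inpp5e, Timm29 with Yipf2, and Timm8b with Nkapd1. The same holds for Timm13 with Tmprss9, Timm10b with Dnhd1, and Timm21 with Fbxo15. It also holds for Tomm6 with Frs3, Gm20517 and Usp49, and for Tomm40l with Apoa2 and Nr1i3.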

How the data were processed

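For every library the authors deposited RPKM values of 28430 RefSeq transcripts. The submitters' processing notes name the build mm9, SAMtools, TopHat and TopHat2 (2.0.12). Per the labels' protocols, RNA was taken with TRIzol and libraries were made with the TruSeq stranded mRNA kit. Not given in the sources used here are the program behind the RPKM values, its annotation release, its use of strand and whether library totals count reads or read pairs.

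Symbols came from a RefSeq gene table of build GRCm38.p6, used for names only, and matched 27789 accessions. The 641 unmatched accessions held 1.50% of the summed RPKM and entered the tests under their accession. Groups and replicate numbers came from the sample titles. The test was limma 3.58.1 with trend (R 4.3.3) on log2(RPKM + 1) with group as the only term, on genes that reached 0.1 RPKM in 3 or more libraries. Ratios were tested with SciPy 1.17.1.

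Same-numbered DMSO and 611 libraries deviated together from their group means, with correlations of 0.30, 0.30 and 0.18 over 13829 genes. The replicate number was therefore also fitted as a block. Values with the block are given where it changed the call of an import gene or of a named partner gene. The other alternatives were a pseudocount of 0.1 RPKM, no filter, a filter of 1 RPKM, median-of-ratios scaling, the mean over a gene's transcripts, limma without trend, and leaving out each library. A further alternative, removing a trend on transcript length, GC content and level, was added after the data were seen.

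Every import gene is named. Of the partner lists, up to 3 called genes in each direction per list with at least 1 RPKM are named by size of change, with 12 genes and Kdm1a named whatever their values. The genes, lists and pairs were chosen with earlier results of these data known. No protein sequences were used here.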

Additional observations from a re-analysis of the deposited data

How the results depend on the processing

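For single genes, 415 of 449 values of import genes under the other settings kept their direction and their side of the threshold. Median-of-ratios scaling gave 3962 genes lower over all genes, and with the replicate block added 4327. Under both, 0 import genes were called higher, their median was -0.43, and the median of the partner lists was -0.35, with 2 partner genes higher under scaling and 3 with the block added. With the replicate block alone, 25 import genes were lower and 1 higher, Timm10b and Tomm7 were added, and the block changed no other call among import genes. Of the 58 partner genes, 37 were then lower and 9 higher, beside 19.5% and 44.6% of all genes. In the list of cytosolic chaperones with Pink1, 6 were higher and 2 lower with the block, where Hsp90aa1 was also called lower (adjusted p 0.0211 from limma). Removing the trend on length, GC content and level gave 3516 higher and 4208 lower of 13386 genes, where 2451 of 13829 were lower as deposited. This setting gave 23 import genes lower and 0 higher with a median of -0.31, and 4 partner genes higher with a median of -0.29. Under it, the calls on Timm8b (adjusted p 0.0855), Tomm20 (0.0579), Tomm5 (0.129) and Tomm34 (0.111) were lost and Timm10b (0.0244), Timm17b (0.00553) and Tomm40l (0.00525) were called lower, all from limma. Leaving out single libraries gave 22 to 24 import genes lower with medians from -0.30 to -0.25. Partner genes were then 30 to 33 lower and 5 to 7 higher with medians from -0.26 to -0.20. Over all 13829 genes, 2165 to 2327 were lower and 5171 to 5533 higher when single libraries were left out. The sign turned for Tomm20l at -0.041 under both scalings and -0.058 with the trend removed, and leaving out single libraries it ran from -0.056 (without DMSO replicate 3) to 0.085. It turned for Tomm22 at 0.023 with the trend removed, and for Atf5 at -0.12 under both scalings, with a range from -0.016 (without DMSO replicate 2) to 0.085 over the single libraries left out. Leaving out single libraries, the log2 ratio of Timm13 to Timm8a1 ran from -0.12 to 0.026, above 0 without DMSO replicate 2 or without 611 replicate 3. The median of the list of cytosolic chaperones with Pink1 turned from 0.07 to -0.078 under scaling. The cause of these changes was not tested. At 3 libraries a group, no ratio of a pair could pass an exact test, and depth limits Timm8a2 and Tomm20l.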

Other observations

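A list of 12 genes held cytosolic chaperones that hand precursors to the mitochondrial surface, and also the kinase Pink1. Of these 12, 5 were called higher and 1, Pink1, lower, where 41.6% of all genes tested were higher and 17.7% lower. The share of higher genes was near that of all genes. The median log2 fold change of the list was 0.07 with the authors' scaling and turned to -0.078 after median-of-ratios scaling. After that scaling 2 were higher and 4 lower, beside 28.5% and 28.6% of all genes. Hsp90ab1, a cytosolic Hsp90, was at 372, 368 and 385 RPKM with DMSO and 538, 530.2 and 560.1 RPKM with 611. Its groups were far apart, with a fold of 1.45 upward. Dnaja4, a J-protein, was lowly expressed and rose from 2.33 to 4.14 RPKM, with a fold of 1.78. Dnajb6 rose from 32.5 to 36.2 RPKM, a call lost after scaling (adjusted p 0.942) and without 611 replicate 2 (0.0549), 611 replicate 3 (0.0611) or DMSO replicate 1 (0.0622), all from limma. Pink1, the kinase that marks mitochondria with failed import, is not a chaperone and was the gene called lower, from 32.1 to 25.6 RPKM. Without DMSO replicate 1 the count of higher genes in this list was 2, and without 611 replicate 1, 611 replicate 3 or DMSO replicate 2 it was 3.

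Of 10 mitochondrial stress response genes, 6 were called lower and 1 higher, and their median log2 fold change was -0.39, where 17.7% of all genes tested were lower and 41.6% higher. After median-of-ratios scaling 7 were lower and 0 higher, beside 28.6% and 28.5% of all genes. Trib3, a pseudokinase induced by the integrated stress response, was at 13.3, 8.22 and 10.8 RPKM with DMSO and 5.27, 3.13 and 4.05 RPKM with 611. The groups did not overlap and the fold was 2.60. Fgf21, a hormone released under mitochondrial stress, fell by a fold of 2.02, from 3.88 to 1.92 RPKM, and Ddit3, the factor CHOP, fell by a fold of 1.55, from 53.1 to 34.2 RPKM. Atf5, a factor of the mitochondrial unfolded protein response, had means of 97.4 and 99.5 RPKM and was not called, with an adjusted p of 0.612 from limma. Its values are those of the higher of 2 listed transcripts, which RefSeq classes as non-coding. Hsf1, the heat shock factor, rose from 8.90 to 10.8 RPKM, a call lost after scaling (adjusted p 0.0663) and with the trend on length, GC content and level removed (0.0981), both from limma.

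The joined ETS letters CTTCCGGAAG were picked out after the windows were read. They were in 5 of the 27 import genes with a window, Hspd1, Hspe1, Timm10, Timmdc1 and Tomm22, or 18.5%, against 0.409% of tested genes, where Hspd1 and Hspe1 share the stretch. Of these 5, Hspd1, Hspe1, Timm10 and Timmdc1 were called lower and Tomm22 was not called. Beside them, 23 of the 30 tested import genes and 17.7% of all genes tested were called lower.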
